A study of Mus musculus with 495 samples.

Results

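Cells that contained mRNA of the transcription factor Fev, little or no Neurog3 and no high level of insulin, Gcg, Sst, Ppy or Ghrl were examined in single cells of the mouse embryonic pancreas. A cell was a member when Fev was at 10 CPM (a gene's counts per 1000000 counts of the cell) or more, Neurog3 was below 20 CPM, and Ins1 and Ins2 together, Gcg, Sst, Ppy and Ghrl were each below 1000 CPM. The members were thus chosen by their measured levels of Fev, Neurog3 and the hormones, and those genes are described but support nothing here. Other islet peptides, among them Pyy, Iapp and Gast, were not part of the rule and were high in some members. Of the 495 cells of the series, 65 met the rule, all on 6 plates that held 429 cells. They are called precursors here after the name given to this stage, and the name rests on the rule and the markers below, not on any tracing of what the cells became.

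Plates EA01 (73 cells) and EA03 (70 cells) carried the plate code Neurog3, and plates EA02 (72 cells) and EA05 (85 cells) the code endocrine. All 4 were taken at embryonic stage E15.5 from pancreas of the genotype Neurog3-eGFP. Plates EA06 (57 cells) and EA07 (72 cells) carried the code Neurog3-cre and were taken at E17.5 from the genotype Neurog3-Cre, Rosa-mTmG, in which Cre made where Neurog3 is active switches a membrane reporter from Tomato to GFP for good. Stage, genotype and plate therefore changed together and cannot be told apart. Plate EA04 (66 cells, E15.5, Neurog3-eGFP) carried the code duct and served as background. The labels name no animal or sort for a cell, so each group counts as 1 sample, no test between groups was possible, and the values below are descriptions whose intervals cover counting error only.

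Endocrine cells of the pancreas arise from epithelial progenitors that briefly make Neurog3, the basic helix-loop-helix factor that starts the endocrine programme. Fev is an ETS-family factor, long known as a regulator of serotonin neurons, and in the pancreas it marks a stage that follows the Neurog3 peak and precedes hormone production. Pax4 is a paired-homeodomain factor that favours the allocation of endocrine cells to the beta and delta types.

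The 2 genes whose detection most shapes the description are Fev, which defined the cells, and Pyy, which encodes peptide YY and varied widely among them. Fev lies on the minus strand of mouse chromosome 1 and Pyy on the minus strand of chromosome 11. Their RefSeq promoters (build GRCm38.p6, from 250 bases before to 50 after the start of transcription, 5′ to 3′ on the gene's strand) are shown with each E-box, the sequence CANNTG that basic helix-loop-helix factors such as Neurog3 recognise, in capitals. The letters were searched on both strands.
Fev, chr1:74885359-74885658: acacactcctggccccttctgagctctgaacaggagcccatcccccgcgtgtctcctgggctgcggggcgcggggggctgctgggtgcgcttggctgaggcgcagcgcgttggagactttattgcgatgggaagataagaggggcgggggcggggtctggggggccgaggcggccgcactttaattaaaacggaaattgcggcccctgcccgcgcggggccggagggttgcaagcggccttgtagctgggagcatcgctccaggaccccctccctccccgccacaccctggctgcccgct
Pyy, chr11:102107783-102108082: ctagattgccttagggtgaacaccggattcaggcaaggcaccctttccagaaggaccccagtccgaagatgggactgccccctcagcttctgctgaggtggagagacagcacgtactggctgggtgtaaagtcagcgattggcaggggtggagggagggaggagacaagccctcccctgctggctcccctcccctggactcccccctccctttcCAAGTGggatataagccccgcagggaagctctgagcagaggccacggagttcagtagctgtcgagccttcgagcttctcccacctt
The Fev window held 0 E-boxes. The Pyy window held 1, which begins 36 bases before the start. Pyy had 2 promoter windows in the set, and only the first is shown and described. Of 32851 promoters of this length, 72.3% held at least 1. A match is a string of letters and no measure of binding.

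The precursors made up 15.2% of the cells on the 6 plates (65 of 429, exact 95% interval 11.9% to 18.9%). There were 11 on EA01 (15.1%), 10 on EA02 (13.9%), 7 on EA03 (10%), 22 on EA05 (25.9%), 5 on EA06 (8.77%) and 10 on EA07 (13.9%). EA05 supplied more than any other plate, and without it 43 remained. On the duct plate 0 of 66 cells met the rule, which allows a share of up to 5.44% (exact 95% interval), and Fev was at 0 there. On EA01 to EA03 none of the 15 cells in well rows D and H was a precursor, against 15 of 64 in rows C and G. On EA05 to EA07 it was 12 of 48 in rows D and H and 7 of 57 in rows C and G.

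Members had 200152 to 1087796 counts (median 547311) and 1237 to 5214 detected genes (median 2669). Members of EA07 stood apart: their median was 895724 counts and 3549.5 genes after every cell was thinned to 200000 counts, against 2085 to 2827 thinned genes at the median of the other plates. The median share of counts in Rn45s, a ribosomal RNA precursor, was 19.20% to 20.98% in members of EA01 to EA03 and 8.04% to 9.77% in those of EA05 to EA07. Results that rest on EA07 are therefore given without it as well.

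The gates left few cells near their edges. Of the 65 members, 61 had no Neurog3 count at all and the other 4 had 1.71, 3.68, 14.3 and 17.1 CPM, while the nearest cell outside had 25.6 CPM. The lowest Fev levels inside were 10.4, 16.1 and 24.4 CPM, and the highest outside was 3.99 CPM. The highest insulin level inside was 299 CPM, and for Gcg it was 853, for Sst 209, for Ppy 720 and for Ghrl 1.80 CPM. The nearest cells outside had 1053 CPM of insulin, 3386 of Gcg, 1384 of Sst, 1452 of Ppy and 2586 of Ghrl. Every hormone was below 200 CPM in 57 members and below 10 CPM in 42. The count changed little with the gates, as the closing section shows.

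**Figure D1:**
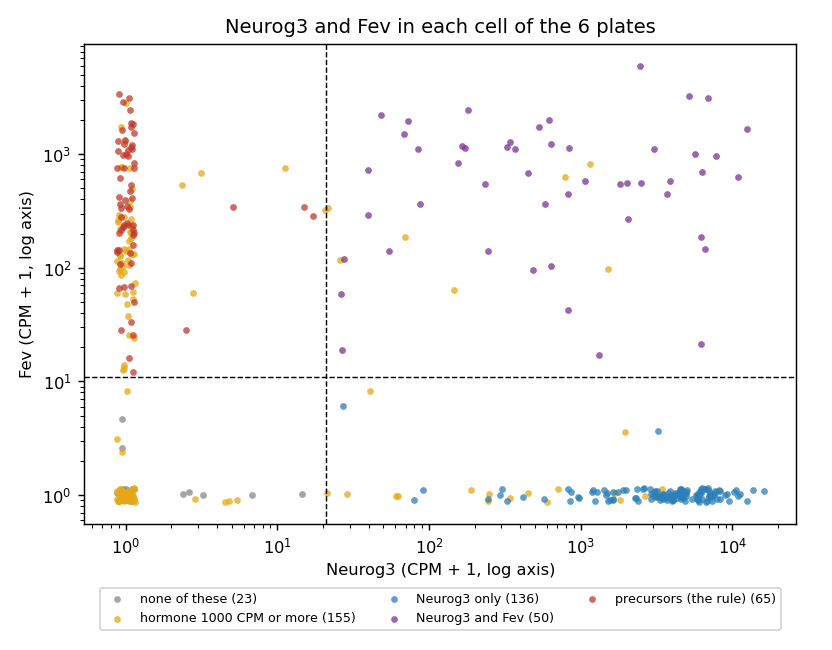
Fev against Neurog3 in each of the 429 cells of the 6 plates, in CPM plus 1 on log axes, with a small seeded jitter. Dashed lines mark 10 CPM of Fev and 20 CPM of Neurog3; colours mark the classes, and 61 of the 65 precursors lie at 0 counts of Neurog3.

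Fev was not limited to these cells. Of 177 Fev-positive cells, 65 were the precursors, 50 also had 20 CPM or more of Neurog3 without hormone (double-positive cells), 54 had a hormone without Neurog3, and 8 had a hormone and Neurog3. Fev was at 10 CPM or more in 30 of 69 cells whose main hormone was insulin, 9 of 19 with Gcg, 9 of 27 with Sst, 8 of 12 with Ppy and 6 of 28 with Ghrl. The comparison classes on the same plates were the cells with Neurog3 and neither Fev nor hormone (Neurog3-only cells, 31.7% of the 429), the 50 double-positive cells (11.7%) and the hormone-positive cells (36.1%). In the sums over cells, Fev was 668 CPM in the precursors, 905 in the double-positive cells, 126.8 in the hormone-positive cells and 0.0694 in the Neurog3-only cells. These values follow from the gates.

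The markers named for the stage were present. Over the 6 plates, the level of Fev in members had a lowest value of 507, a median of 648 and a highest value of 1255 CPM. Chgb, which encodes the granule protein chromogranin B, ran from 1372 over a median of 2386 to 6621 CPM and was at 10 CPM or more in 61 cells. Hmgn3, a nucleosome-binding protein, ran from 866 over 1353 to 2337 CPM and was found in all 65. Every plate had each of these genes. Scgn, encoding the calcium sensor secretagogin, ran from 1000.2 over 1272 to 2283 CPM in 61 cells. Gch1, the first enzyme of tetrahydrobiopterin synthesis, ran from 555 over 729 to 1127 CPM in 59 cells. Pax6, a factor of all islet cell types, ran from 359 over 562 to 749 CPM in 59 cells. On the duct plate Chgb and Scgn were at 0, Pax6 at 0.0686, Gch1 at 21.99 and Hmgn3 at 34.7 CPM.

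**Figure D2:**
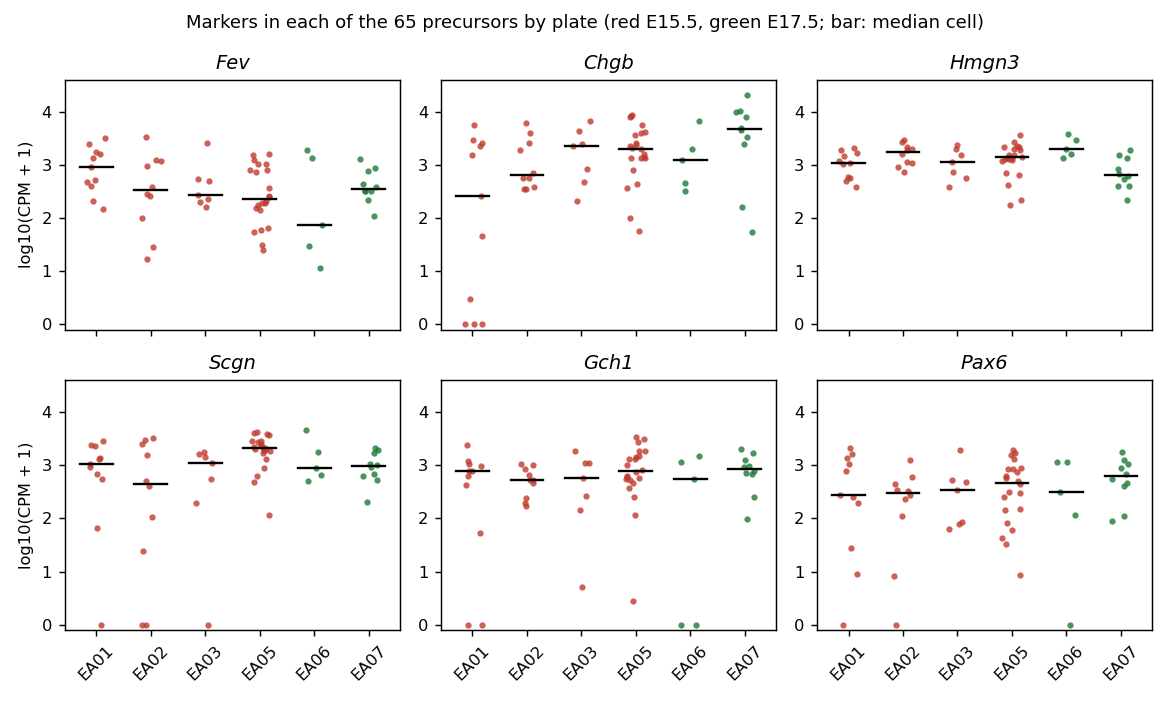
Level of Fev and the other 5 markers in each of the 65 precursors by plate, as log10 of CPM plus 1, with red points at E15.5, green points at E17.5 and a bar at the median cell. Hmgn3 was at 10 CPM or more in all 65 cells, and Chgb and Scgn were each so in 61.

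Markers of most other cell types were at or near 0 in the precursors, while duct markers were not. All 4 mesothelium markers, 7 of 8 endothelial markers and 6 of 7 immune markers had no count in any member. The summed level of 15 acinar markers was 75.5 CPM (0 to 216 over plates), against 38545 CPM on the duct plate. That of 11 duct markers was 838 CPM (442 to 1394) against 3333 CPM. Among them Krt7, a keratin of duct epithelium, was at 478 CPM and at 10 CPM or more in 48 of 65 precursors, with 895 CPM in the Neurog3-only and 350 CPM in the hormone-positive cells. The part of duct RNA in the results was not tested. The 11 mesenchyme markers summed to 250.5 CPM (66.9 to 460) against 2691 CPM. Most of the mesenchyme sum was Vim, encoding the filament protein vimentin, at 226 CPM in 16 of 65 cells. Endothelial, immune and erythroid markers each summed to at most 5.20 CPM. The 9 neuron and neural crest markers, several of which endocrine cells also express, summed to 254 CPM (110.3 to 364), above the 22.4 CPM of the duct plate.

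Fev controls the serotonin genes of the brain, so these were listed beside it. The precursors held the cofactor and decarboxylase steps of amine synthesis but not the hydroxylase that commits to serotonin. Tph1 and Tph2, the tryptophan hydroxylases, and 1 further gene of the 12 had no count in any member, which for the 65 cells together allows up to 0.0750 CPM (3 counts). Ddc, the aromatic amino acid decarboxylase, was at 181 CPM in 23 cells, and Gch1 in 59. The vesicular amine transporters Slc18a1 and Slc18a2 were at 29.3 CPM in 9 cells and 12.5 CPM in 7. Maob, which breaks amines down, was at 145.8 CPM in 14 cells. Lmx1b, another factor of serotonin neurons, was found in 1 cell.

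Against the Neurog3-only cells, the precursors had more mRNA of granule proteins and less of the Neurog3 progenitor genes. Levels were taken from counts summed over the cells of a class, ratios as log2 of CPM plus 5, and a gene counted as higher or lower past 2-fold. Of 7977 genes at 20 CPM or more in either class, 1386 were higher (17.4%) and 888 lower (11.1%), with a median log2 ratio of 0.18. That shift depends on the scaling: of the genes past 2-fold, 60.9% were higher with totals and 47.8% with edgeR's TMM factors. Only 38 genes (0.476%) were over 2-fold higher, and 61 (0.765%) over 2-fold lower, in each of the 6 plates as well.

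All 17 measured genes of 18 granins and granule proteins were higher in the precursors, with a median log2 ratio of 3.02 against 0.18 for all genes. Of the 17, 5 reached 20 CPM only through 1 class. Chgb was 3222 against 259 CPM, a log2 ratio of 3.61 that lay between 0.64 and 6.04 within plates. It was lowest within EA05, which held 5 Neurog3-only cells. Scgn was 1572 against 188 CPM (3.03, plates 1.01 to 6.17). Pam, the enzyme that amidates peptide hormones, was 502 against 36.4 CPM (3.61, and 4.37 without EA05). Scg2, secretogranin II, was 79.8 against 0.0417 CPM (3 counts), a ratio of CPM of 1916 with a 95% counting interval of 655 to 9295. That ratio was 1141 without EA05 and 5143 without EA06. Scg2 was at 10 CPM or more in 12 precursors and in no Neurog3-only cell. Of 15 measured exocytosis genes, 5 of which reached 20 CPM only through 1 class, 10 were higher and none lower (median 1.25). Rab3b, a GTPase of secretory vesicles, was 187 against 9.93 CPM (3.68, and 4.49 without EA06). Of 8 measured genes of excitability and glucose sensing, 3 were higher. Among them Abcc8, the sulfonylurea receptor of the ATP-sensitive potassium channel, was 787 against 140.9 CPM, a log2 ratio of 2.44.

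Of 5 measured hormones and islet peptides, 2 of which passed the level filter through 1 class only, Pyy, Iapp, Gast and the capped Ppy were higher. Cck, which encodes cholecystokinin, was lower, at 142.7 against 619 CPM (-2.08). The leading higher genes came from several functions. Tmem27, a glycoprotein of alpha and beta cells, was 462 against 5.97 CPM. Its log2 ratio was 5.41, from 5.08 without EA03 to 6.39 without EA06. It was at 10 CPM or more in 30 of the 65 precursors. Pyy was 4488 against 171 CPM, a log2 ratio of 4.67 that was 5.45 without EA06. Iapp, the amyloid peptide co-secreted with insulin, was 678 against 20.2 CPM, a log2 ratio of 4.76. That ratio was 3.96 without EA05 and 5.62 without EA06, and within EA07 it was 0.82. Rbp4, the retinol carrier, was 2239 against 156.2 CPM (3.80, plates 0.96 to 6.85). O3far1, the long-chain fatty acid receptor also named Ffar4, was 199 against 10.2 CPM (3.75). Its within-plate ratios, 3.74 to 4.98, spread less than those of Pyy, 1.33 to 8.95.

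Other leading genes were AW551984 (log2 ratio 5.22), the actin-binding thymosin Tmsb15b2 (4.66, and 3.52 without EA05), the ectonucleotidase Entpd3 (4.50), the mucin Muc4 (4.48, and 5.93 without EA07), the ubiquitin-like protein protease Usp18 (4.24, and 5.11 without EA05) and the cationic amino acid transporter Slc7a2 (3.98). Each was higher in the precursors within all 6 plates, as the rule for naming them required.

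**Figure D3:**
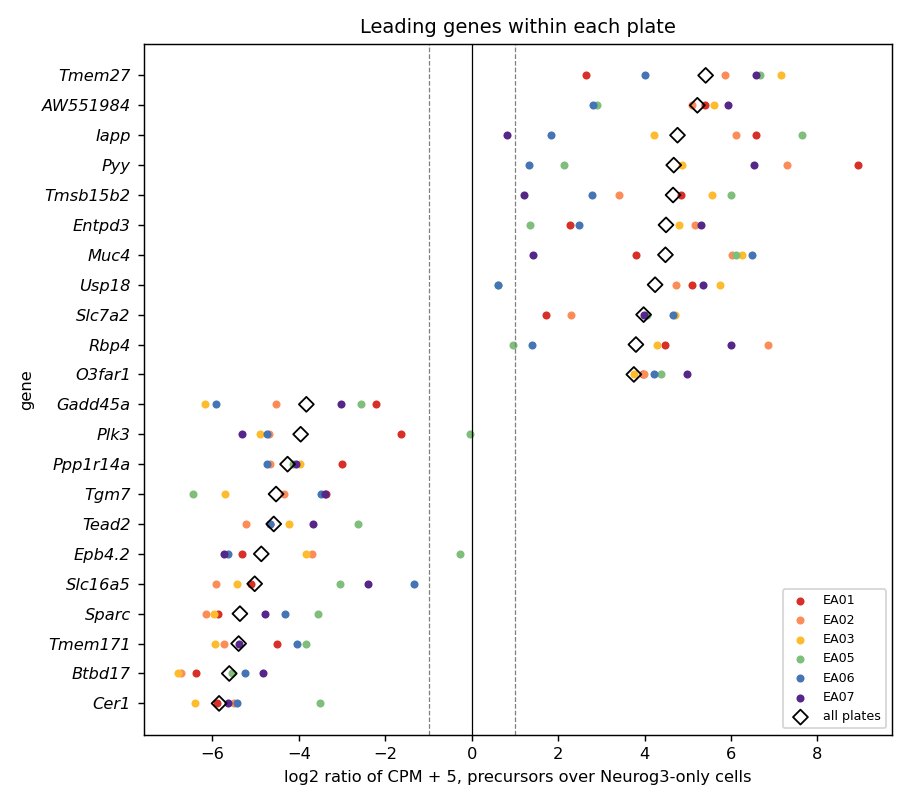
Log2 ratio of CPM plus 5 between the precursors and the Neurog3-only cells for the leading genes, with 1 coloured point for each of the 6 plates and a diamond for all plates; dashed lines mark 2-fold. The naming rule put all points of a gene on 1 side of 0, and the points of O3far1 lie between 3.74 and 4.98.

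Of 17 Neurog3 progenitor genes, 15 were lower in the precursors and none higher, with a median log2 ratio of -2.81 (Neurog3 itself follows from the gate). Of the 17, 6 passed the level filter through 1 class only. Btbd17, a gene of Neurog3 progenitors, was 6.05 against 535 CPM, a log2 ratio of -5.61 and of -6.47 without EA07. Cer1, a secreted BMP and Nodal antagonist, was 0.0500 (2 counts) against 286 CPM. Its CPM were 5712-fold lower in the precursors, with a 95% counting interval of 1581 to 47166. Without EA07 the precursors had none and were at least 3010-fold lower with 3 counts over the class as the floor. Tead2, a partner of the YAP coactivator, was 0.175 against 118.9 CPM (-4.58). Cer1 and Tead2 reached 10 CPM in no precursor. Hes6, an inhibitor of Hes1, was 122.1 against 875 CPM (-2.79, and -3.90 without EA07). Gadd45a, a growth arrest gene, was 24.5 against 414 CPM (-3.83, and -4.51 without EA07). Mfng, a glycosyltransferase that modifies Notch, was 45.2 against 278 CPM (-2.50, and -3.39 without EA07). Members of EA07 held most of the remaining Btbd17, at 25.7 CPM, with at most 0.752 CPM on any other plate.

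Outside that list, Tmem171 had no count in the precursors and 205 CPM in the Neurog3-only cells, at least 2737-fold lower with 3 counts over the class as the floor. Sparc, a matrix protein, was 2.60 against 308 CPM (-5.36). Slc16a5, a monocarboxylate transporter, was 0.0500 (2 counts) against 159 CPM, or 3183-fold lower (881 to 26286). It was 2118-fold lower without EA02, and without EA05 the precursors had none and were at least 1431-fold lower. Spp1, osteopontin and a duct marker, was 24.7 against 1314 CPM (-5.47, and -4.62 without EA07), but within EA05 it was the precursors that were higher (2.63). Of 10 measured S phase genes, 5 of which passed the level filter through 1 class only, 6 were lower and none higher. Of 17 genes of G2 and M phase, 12 had no count in any precursor, and the 17 summed to 22.4 CPM against 267 CPM. Of 7 measured cell cycle exit genes, 4 were lower, among them Cdkn1a, the inhibitor p21, at 248 against 1074 CPM (-2.09). Cdkn2d, the inhibitor p19, was higher, at 64.6 against 18.2 CPM (1.58, and 0.76 without EA05).

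Transcription factors differed in both directions. Of 15 measured pan-endocrine factors, 2 were higher, 4 lower and 9 within 2-fold. Pax6 was 593 against 72.6 CPM (2.95, and 3.76 without EA06). Neurod2, a relative of Neurod1, was 2.80 against 61.01 CPM (-3.08, and -3.76 without EA07). Tox3 was 209 against 512 CPM (-1.27). Of 12 measured lineage factors, 3 of them measured through 1 class only, 8 were higher and 2 lower. Pax4 was one of the lower genes, at 279 against 1165 CPM (-2.04, plates -3.74 to -0.58). Pdx1, a factor of progenitors and beta cells, was 107.3 against 25.5 CPM (1.88, and 2.58 without EA07). Within EA06 and EA07 its ratios were 0.05 and -0.24. Nkx6-1, a beta cell factor, differed by less than 2-fold (0.61).

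Set beside the 50 double-positive cells, the precursors had the markers at like levels and less of the progenitor genes. Of 8066 genes tested, 842 were higher (10.4%) and 986 lower (12.2%), with a median of -0.01, and without EA07, which held 20 of the 50 double-positive cells, 1577 were higher. None of the 6 markers differed by over 2-fold. Chgb was 3222 against 3222 CPM, and 0.79 as a log2 ratio without EA07. Pax6 was 593 against 567 CPM, Gch1 891 against 826 and Hmgn3 1356 against 979. Scgn came nearest to 2-fold, at 1572 against 792 CPM (0.98, and 1.15 without EA01). Of 15 measured pan-endocrine factors, none was past 2-fold in either direction.

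Of 15 measured Neurog3 progenitor genes, 10 were lower in the precursors than in the double-positive cells and none higher (median -1.25). Neurog3 itself, 1 of the 10, follows from the gate, and 4 of the 15 passed the level filter through 1 class only. Btbd17 was 6.05 against 94.8 CPM (-3.18, and -4.57 without EA07). Tead2 was 0.175 against 26.2 CPM (-2.59, from -3.38 without EA07 to -1.37 without EA01). Hes6 was 122.1 against 278 CPM (-1.16, and -0.49 without EA05), and within plates its ratios ran from -0.32 to 1.69. Pax4 was 279 against 688 CPM (-1.29, and -0.80 without EA05). Among the leading lower genes were Calu, a calcium-binding protein of the endoplasmic reticulum (13.7 against 94.5 CPM, -2.41, and -3.26 without EA07), the casein kinase Csnk1g2 (-2.27) and Ezh2, the histone H3 lysine 27 methyltransferase (9.85 against 64.5 CPM, -2.23).

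Of 7 measured hormones and islet peptides, 4 passed the level filter through 1 class only. Pyy, Iapp, Gast and Ppy were higher in the precursors than in the double-positive cells and 2 were within 2-fold. Gast and Ppy differed in direction between plates, with log2 ratios of -0.81 to 4.68 and -3.15 to 3.76. The summed ratio of Gast was 5.81, and 2.75 without EA03. Ghrl was lower, at 0.0750 (3 counts) against 41.2 CPM, and both it and Ppy were capped in each class. Pyy was 4488 against 1158 CPM, a log2 ratio of 1.95 and of 1.52 without EA07. On the 4 plates with 5 cells of both classes its ratios were 1.08 to 6.48, with 1 direction required by the rule that named it. Rbp4 was 2239 against 685 CPM (1.70). Iapp was 678 against 81.7 CPM (2.98, and 2.17 without EA05), though within EA07 it was lower (-0.63). Tmsb15b2 was 347 against 21.5 CPM (3.73, and 2.57 without EA05), and Meis2, a homeobox factor, 326 against 97.2 CPM (1.70). Of 17 measured granule genes, 3 were higher and 1 lower. The lower gene was Chga, chromogranin A (-1.37), and without EA07 its ratio was -0.62.

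**Figure D4:**
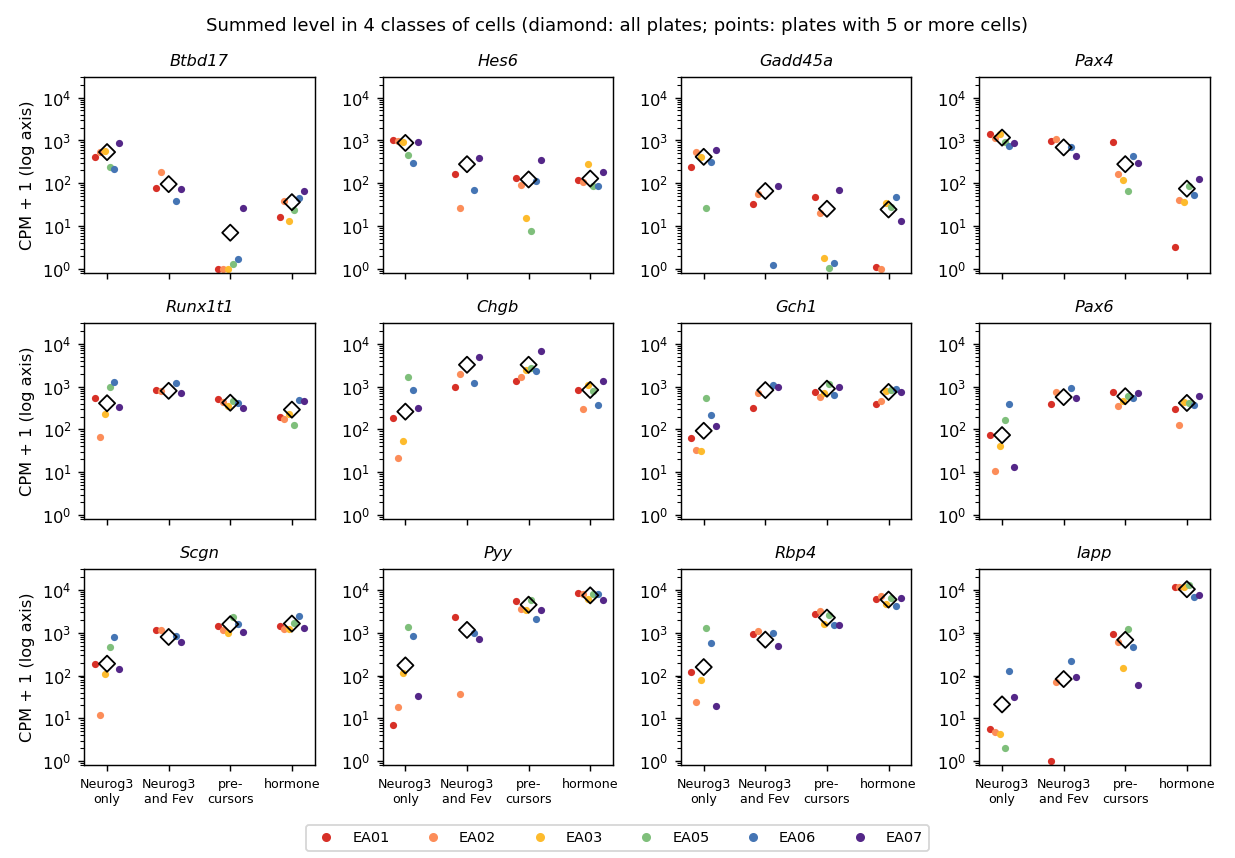
Summed level in CPM plus 1 (log axis) of 12 genes in the Neurog3-only, double-positive, precursor and hormone-positive cells; diamonds stand for all 6 plates and coloured points for plates with at least 5 cells of a class. Btbd17 is at 535, 94.8 and 6.05 CPM in the first 3 classes and 35.4 CPM in the fourth, and Pyy at 171, 1158, 4488 and 7407 CPM.

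Against the hormone-positive cells, the precursors had more mRNA of the progenitor factor Gata6 and of Chgb. They had less of most measured genes of beta, delta and epsilon cells. Of 7883 genes tested, 641 were higher (8.13%) and 554 lower (7.03%), with a median of 0.11. Of those past 2-fold, 53.6% were higher with totals, 45.7% with DESeq2 size factors and 20.6% with the mean of within-plate ratios. Only 6 genes (0.0761%) were over 2-fold higher in every plate. Gata6, a factor of early pancreatic progenitors, was 97.8 against 19.4 CPM (2.08), with the same direction in all 6 plates, as the naming rule required. Chgb was 3222 against 832 CPM (1.95, plates 0.74 to 2.67). It was the only one of 17 measured granule genes past 2-fold higher, and 4 were lower. Pgf, placental growth factor, was 278 against 25.6 CPM (3.21). Slc35d3, an orphan member of the nucleotide sugar transporter family, was 80.3 against 3.66 CPM (3.30). AW551984 was 217 against 14.4 CPM (3.52), and Pdk3, a kinase of pyruvate dehydrogenase, 295 against 41.3 CPM (2.69). AW551984 and Pgf were also higher in the precursors than in the Neurog3-only cells, at 0.958 and 42.7 CPM there, while Pdk3 was not, at 344 CPM.

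Most measured genes of beta, delta and epsilon cells were lower. Over all genes, 39 (0.495%) were over 2-fold lower in every plate. Of 14 measured beta cell genes, 6 of them measured through 1 class only, 10 were lower and 2 higher (median -3.01, insulin by the gate). The 2 higher genes were the lineage factors Nkx6-1 and Mnx1, and Pdx1 was within 2-fold. Of 7 measured epsilon cell genes, 4 of them measured through 1 class only, 6 were lower and none higher (median -3.60, Ghrl by the gate). All 4 measured delta cell genes, 2 of them measured through 1 class only, were lower (median -1.72, Sst by the gate). Of 11 measured alpha cell genes, 2 were lower and 2 higher (Gcg by the gate). G6pc2, the islet glucose-6-phosphatase, was 338 CPM in the hormone-positive cells (-4.06). Slc2a2, the glucose transporter GLUT2, was 12.5 against 138.3 CPM (-3.03, and -3.65 without EA05). Iapp was 678 against 10295 CPM (-3.91). G6pc2 was at 10 CPM or more in 4 precursors and Slc2a2 in 2. Mapt, the microtubule protein tau, was 1.12 against 81.8 CPM (-3.82). Scg2 was 79.8 against 839 CPM (-3.32, and -4.19 without EA05). Igfbp7, an IGF-binding protein, was 4.85 against 102.1 CPM (-3.44, and -4.63 without EA05). Nnat, an imprinted proteolipid, had a ratio of -3.45. Arginase 1, Arg1, a gene of the epsilon list, had a ratio of -3.81 (-4.60 without EA03). Ucn3 and Mafa, genes of mature beta cells, had no count in any precursor and were themselves at 14.1 and 1.16 CPM in the hormone-positive cells.

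Of 14 measured pan-endocrine factors, 2 were higher, 1 lower and 11 within 2-fold, while 15.2% of all genes were past 2-fold either way. Pyy was 4488 against 7407 CPM, within 2-fold (-0.72). Scgn, Gch1 and Pax6 were within 2-fold too, with ratios of -0.05, 0.25 and 0.51. Isl1, a LIM-homeodomain factor of islet cells, was lower (-1.14, and -0.93 without EA06), while Rfx6, a factor of endocrine differentiation, was higher (1.09). Of 14 measured immediate early genes, which respond to stimulation and to handling of cells, 6 were higher and none lower (median 0.91). Egr1 was 996 against 471 CPM (1.07, and 0.84 without EA06). The part of these genes in the other differences was not tested.

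Within the 65 precursors the level of Pyy varied from cell to cell. Pyy was at 1000 CPM or more in 25 cells, between 10 and 1000 in 8 and below 10 in 32, and its highest level was 32948 CPM. Cells at 1000 CPM or more occurred on every plate: 5 of 11 on EA01, 2 of 10 on EA02, 3 of 7 on EA03, 8 of 22 on EA05, 2 of 5 on EA06 and 5 of 10 on EA07. Thinning all cells to 200000 counts left the number at 10 CPM or more at 33. Pyy was at 0 on the duct plate.

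Pax4 was found in some of the precursors. It was at 10 CPM or more in 28 of 65 cells (43.1%, exact 95% interval 30.8% to 55.96%), from 22.1 over a median of 397 to 3338 CPM in those cells. By plate it was found in 7 of 11 precursors on EA01, 6 of 10 on EA02, 2 of 7 on EA03, 5 of 22 on EA05, 3 of 5 on EA06 and 5 of 10 on EA07. EA05 had the lowest share, 22.7%. The share was 76.5% in the Neurog3-only cells (interval 68.4% to 83.3%), 70% in the double-positive cells (55.4% to 82.1%) and 12.3% in the hormone-positive cells (7.54% to 18.5%). In the cells that had it, the median level was 1366 CPM in the Neurog3-only, 817.02 in the double-positive and 342 in the hormone-positive cells. Over all plates, both the share and this median in the precursors lay between those of the double-positive and hormone-positive cells. Within plates the median did so on EA05 only, which held 2 double-positive cells. On EA01 and EA07 it was above that of the double-positive cells (1975 against 820 and 706 against 462 CPM). On EA02, EA03 and EA06 it was below that of the 1 or 2 hormone-positive cells with Pax4. The share lay between on each plate but EA06 (60% against 57.1% in double-positive cells).

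Few precursors had both Pax4 and a high level of Pyy. Of the 28 cells with Pax4, 3 had 1000 CPM or more of Pyy, while 22 cells had high Pyy without Pax4 and 15 had neither. Isl1 was at 10 CPM or more in 49 members and in 24 of the 25 with high Pyy. Ppy, pancreatic polypeptide, whose level the rule capped, was at 10 CPM or more in 13 cells, of which 10 had high Pyy. Irx2, an alpha cell factor, was found in 9 cells, of which 7 had high Pyy and 1 had Pax4. These counts are co-detections in the same libraries, and depth sets in part what is detected.

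Factors of beta cells are set here beside Pax4, found in 28 of the 65, and high Pyy, found in 25. Nkx6-1 was at 10 CPM or more in 35 cells, of which 20 had Pax4 and 9 had high Pyy. Pdx1 was found in 30 cells, of which 14 had Pax4 and 10 had high Pyy. Iapp reached 1000 CPM in 12 cells, of which 6 also had high Pyy and 3 had Pax4. Hhex, a delta cell factor, was found in 8 cells, with a highest level of 4177 CPM. Gast, encoding gastrin, exceeded 1000 CPM in 2 cells of EA03, at 25102 and 1697 CPM, and both also had Irx2 and high Pyy.

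**Figure D5:**
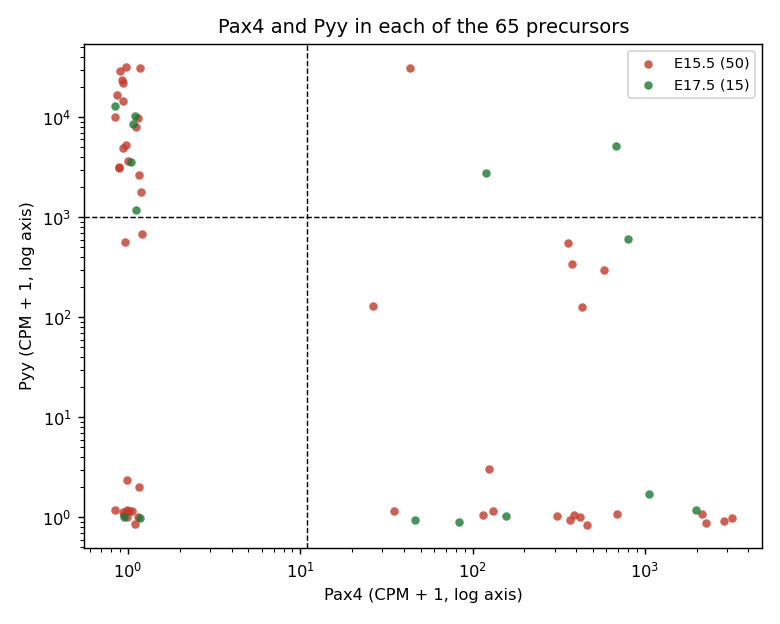
Pyy against Pax4 in each of the 65 precursors, in CPM plus 1 on log axes with a small seeded jitter; dashed lines mark 10 CPM of Pax4 and 1000 CPM of Pyy, and colours mark the stage. Past both lines lie 3 cells, and 22 of the 25 cells above the Pyy line are left of the Pax4 line.

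The reporter genes gave a separate reading at E17.5. Gfp_transgene was at 10 CPM or more in all 15 precursors of EA06 and EA07 (exact 95% interval 78.2% to 100%), from 514 over a median of 1310 to 3258 CPM. All Neurog3-only, double-positive and hormone-positive cells of those plates had it too. Cre_transgene, whose mRNA the Neurog3-Cre genotype makes, was at 10 CPM or more in 5 of 15 precursors (33.3%, 11.8% to 61.6%), with 41.2 CPM in the sum. It was found in 26 of 28 Neurog3-only cells (1628 CPM), 20 of 27 double-positive cells (529 CPM) and 16 of 53 hormone-positive cells (98.8 CPM). On EA06 Cre_transgene was 7.90 CPM in precursors and 1241 in Neurog3-only cells, and on EA07 50.9 and 1823 CPM. The gate on Neurog3 did not use the reporter, but by the name of the genotype Cre is driven from Neurog3, so the order of the classes was not independent of the gate. Tdtom_transgene had no count in any precursor, Neurog3-only or double-positive cell, and a read in 1 hormone-positive cell of EA06. Its absence was thus not particular to the precursors. At E15.5 no precursor had a count of Gfp_transgene, and 0 of 50 allows a share of up to 6% (3 cells). On EA01 to EA03 alone it was 0 of 28, or up to 10.7% by the same measure. On those plates Gfp_transgene was at 10 CPM or more in 31.1% of the Neurog3-only cells, at 31.2 to 32.8 CPM by plate. Of the hormone-positive cells 5 of 19, 3 of 16 and 3 of 17 had it there. Of the double-positive cells it was 0 of 10, 1 of 8 and 0 of 3. On EA05 it was found in 0 of 5 Neurog3-only, 1 of 2 double-positive and 0 of 50 hormone-positive cells.

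The E17.5 and E15.5 precursors, 15 and 50 cells, differed in many genes, with genotype and plates different as well. Of 8273 genes tested, 2212 were higher at E17.5 (26.7%) and 1457 lower (17.6%), with a median of 0.18. Together 44.3% were past 2-fold, and of those 60.3% were higher with totals and 49.3% with TMM factors. Without EA07, which leaves 5 cells at E17.5, 1732 were higher and 3441 lower. Ratios are given below with the value without a plate where that moved them by over 1.5 times.

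Immediate early genes were higher at E17.5 in 8 of 15 and lower in 1 (median 1.05). Jun, a subunit of the AP-1 factor, was 97.6, 106.1, 182 and 23.5 CPM on the 4 E15.5 plates and 538 and 1283 CPM on the 2 E17.5 plates. The plates did not overlap, as the rule that named the leading stage genes required, and the log2 ratio was 3.83, or 2.79 without EA07. Junb and Jund were also higher (2.09 and 2.55).

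Of 12 measured Neurog3 progenitor genes, 8 were higher at E17.5 and 1 lower (median 1.71), and 4 of the 12 were measured through 1 class only. Mfng was 3.43, 0, 0 and 7.59 CPM on the E15.5 plates and 184 and 130.2 CPM on the E17.5 plates (3.97). It was at 10 CPM or more in 6 members in all. Hes6 was 299 against 47.7 CPM (2.53, from 1.12 without EA07 to 3.24 without EA01). EA06 and EA07 were also the only plates whose members had any Neurog3 count, at 0.376 and 3.71 CPM. Its part in the progenitor genes was not tested.

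Granule genes were higher at E17.5 in 5 of 17 and lower in 2, shares near the 26.7% and 17.6% of all genes. Pcsk1n, an inhibitor of prohormone convertase, was 793 against 82.5 CPM (3.19, and 2.05 without EA07). Chga was 3753 against 491 CPM (2.92), but without EA07 the log2 ratio was 0.69, below 2-fold. That of Chgb was 1.36, and 0.08 without EA07. Foxa2, a factor of the gut endoderm, was 317 against 92.4 CPM (1.72, from 1.03 without EA07 to 2.47 without EA05). The leading higher genes were low at E15.5, among them Ltv1, a ribosome assembly factor (159 against 0.142 CPM, in 33.3% of E17.5 cells), Fam108b (4.40) and the oxygen sensor Egln2 (4.56, and 3.85 without EA07).

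Lower at E17.5 were Gast, Prdx4, Pno1 and Mia1, each without a count in the 15 cells. Gast was 547 CPM at E15.5, most of it from 1 cell of EA03. Its plates held 123.1, 30.7, 3736 and 51.5 CPM, so it was at least 2159-fold lower at E17.5 with 3 counts over the class as the floor, at least 250.04-fold without EA03, 485-fold without EA07 and 4045-fold without EA05. Prdx4, a peroxidase of the endoplasmic reticulum, was 116.05 CPM at E15.5, at least 458-fold lower at E17.5 by the same floor and at least 102.84-fold without EA07. Pno1, a ribosome assembly factor, and Mia1, a secreted cartilage protein, were 103.1 and 81.1 CPM at E15.5. Pdx1 was 49.9 against 131.5 CPM (-1.31). Iapp was 148.5 against 901 CPM (-2.56, from -3.86 without EA06 to -0.95 without EA07). Pyy and Pax4 differed by less than 2-fold (-0.68 and 0.33), but Pyy was past it at -1.26 without EA07 and Pax4 at 1.70 without EA01. Acinar markers differed with stage: 4 of the 15 were measured, each through 1 class only, and all 4 were higher at E17.5. Their sum was 117.4 CPM on EA06 and 216 CPM on EA07, against 0 to 38.3 CPM on the E15.5 plates. Whether acinar RNA, depth or the library batch had a part in the stage differences was not tested.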

How the data were processed

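Single cells were prepared with Smart-Seq2, per the labels' protocols. The submitters' processing notes name FastQC, STAR, HTSeq and the mm10 build without versions. The authors deposited a table of raw counts, whole reads for 23002 genes in 495 cells, in which every column matched a labelled cell. No 2 cells had identical values. Each plate's cells were put in classes by the gates stated above. Counts were summed over the cells of a class and divided by the summed totals (CPM). Ratios used a pseudocount of 5 CPM, over genes at 20 CPM or more in either class, and a call meant over 2-fold. Depth was 200152 to 1087796 counts per member. Intervals are exact (Clopper-Pearson or Poisson, 95%) and cover counting error only, since the reads carry no molecular identifiers. Doublets were not called.

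Leading genes were the 12 with the largest ratio each way among genes at 50 CPM or more in the higher class, at 10 CPM or more in at least 25% of its cells, and in the same direction in every plate with at least 5 cells of both classes (for stage, both E17.5 plates beyond every E15.5 plate). Up to 4 genes of each of 30 lists, the markers and the hormones and factors Pax4, Pdx1 and Nkx6-1 were named too, and some genes that these rules name are not reported here. Other genes named were chosen after their values were seen. The members, lists and alternatives were chosen with earlier results of these data known. A list gene could pass the level filter through 1 class only, so list counts are descriptions. Reads were not stated to be counted by strand, and genes that share reads with a close copy (Ins1 and Ins2, the Tmsb15 genes) are uncertain. The calculation was tested on simulated counts for the comparison with the Neurog3-only cells. All 100 genes raised 8-fold and all 100 lowered 8-fold were recovered, but 14.5% of the unchanged genes also passed 2-fold. The spread between simulated cells was set and not taken from the data, so the share in the real data may differ. Alternatives used edgeR 4.0.16 and DESeq2 1.42.0 for scaling only. Python 3.11.15 with numpy 2.4.6 and pandas 2.3.3 was used. Promoters came from RefSeq (GRCm38.p6).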

Additional observations from a re-analysis of the deposited data

How the results depend on the processing

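The number of precursors was 65 and, when 1 plate was left out, between 43 (without EA05) and 60. None of the other gates tried, nor thinning or totals without Rn45s, moved it by over 1.5 times. The counts of genes past 2-fold depended on the pseudocount and the level filter. With a pseudocount of 20 CPM they were 749 higher and 518 lower against the Neurog3-only cells, 358 and 460 against the double-positive cells, and 217 and 221 against the hormone-positive cells. With genes at 50 CPM or more they were 787 and 470, 359 and 486, 305 and 206, and for stage 1391 and 741. With no gene filter they were 1524 lower against the Neurog3-only cells, 1484 higher and 1607 lower against the double-positive cells, 985 higher and 1216 lower against the hormone-positive cells, and 2443 lower for stage. The mean of within-plate ratios gave 1342 lower against the Neurog3-only cells, and 352 higher and 1359 lower against the hormone-positive cells. Leaving out 1 plate gave 1411 to 1619 higher and 909 to 1042 lower against the Neurog3-only cells, 871 to 1577 and 1027 to 1196 against the double-positive cells, 688 to 909 and 611 to 803 against the hormone-positive cells, and 1732 to 2510 and 1360 to 3441 for stage. The cause was not tested, except that the filters change how many genes are tested.

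Cdkn2d, which fell below 2-fold against the Neurog3-only cells without EA05, was not among the genes followed here. Of 42 genes over 2-fold against the Neurog3-only cells that were followed, all kept their direction and stayed over 2-fold under the 17 other settings tried for them. Against the double-positive cells 248 of 255 such values did, and 1 reversed: Hes6 was 0.45 with the mean of within-plate ratios. Against the hormone-positive cells it was 349 of 357, and for stage 348 of 357, with none reversed. The leading genes among those followed had been picked for large ratios and 1 direction across plates. That they kept their direction when a plate was left out was thus largely set by the choice and adds no support. Counting Pax4 at any read, at 50 CPM or after thinning was added after the data were seen. It gave 24 to 28 precursors with Pax4, of which 2 or 3 had high Pyy. Without 1 plate, 21 to 26 precursors had Pax4. No paired analysis was possible because no replicate number ties a cell of 1 class to a cell of another. The classes share plates, and the mean of within-plate ratios compares them within plates. Plates stand in for replicates here but may share animals or handling, which the labels do not give. Classes of 5 to 22 cells on a plate limit every within-plate value.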
